A study of Mus musculus with 20 samples.

Results

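The genes of lipogenesis and triglyceride storage were examined in the liver RNA-seq tables of male and female mice, together with the listed ATAC-seq peaks, which are regions of open chromatin, near them. They were chosen by name as genes that make, modify and store fatty acids or that control these steps, and comprise 38 of the 56884 genes in the male table. All 38 were in the male table and 37 in the female table, which lists 18149 genes and does not list Cidea. Livers came from mice of 11 to 14 weeks carrying the Midn XTR allele, an invertible gene-trap cassette in intron 2 of Midn, the gene of the nuclear protein midnolin. Samples called WT carry the uninverted allele (genotype Midn XTR) and those called Midn-T the trapped allele (Midn TR), made by crossing to Albumin-Cre mice, whose Cre is driven by a hepatocyte promoter. The labels do not say whether WT mice carried Cre, and no other treatment was applied. Within each sex, RNA-seq covered 3 mice per genotype and ATAC-seq 2.

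De novo lipogenesis turns sugar-derived carbon into fatty acids. Citrate leaves the mitochondrion, is split to acetyl-CoA, carboxylated to malonyl-CoA and built into palmitate with reducing power from NADPH, after which elongases and desaturases adjust chain length and double bonds. Fatty acids are then activated to acyl-CoA, joined to glycerol in a series of acyltransferase steps, and stored as triglyceride in droplets coated by perilipins. In the liver the program is driven by SREBP-1c, which responds to insulin, and by ChREBP, which responds to glucose metabolites.

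The value available for each gene was the authors' mean normalized count over the 3 WT and 3 Midn-T samples of 1 sex. Each mean therefore mixes both genotypes, has no replicate spread, and supports no test, and Midn-T and WT livers were not compared here. Levels are compared between genes only after division by exon length and scaling to a sum of 1000000 over all genes of a table, called the length-scaled level. The male and female tables were normalized separately by the authors, so for each gene the female over male ratio of means was rescaled to put the median of all 16283 genes with a mean of at least 10 in both tables at 1 (0 on the log2 scale). As deposited, that median ratio was 1.04. Sex and any processing difference between the tables cannot be told apart, nor, in whole liver, can fewer cells of a type and less RNA per cell.

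The tables bore the marks of their labelled sex and tissue. The female-typical genes Cyp2b9 and Xist had means of 13.0 and 14.0 in the male table and of 24118 and 72478 in the female table, while the Y-linked Ddx3y, Kdm5d, Eif2s3y and Uty were listed in the male table only. A1bg, of the fixed female list, had a mean of 0.773 in males and was not listed in females, where the table starts at 6.61, so it gives no direction. The other male-typical genes had log2 ratios from -7.67 to -3.14. Hepatocyte markers were all present, with means from 15328 to 1.73e+06 in males and from 13316 to 2.33e+06 in females. Their median log2 ratio was -0.17, with 2 above 0 and 6 below. Of 8 ATAC-seq samples, 5 carry a title that contradicts the sex or genotype of the library name, and they were grouped by library name, whereas none of the 12 RNA-seq titles does so.

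Lipogenic genes were among the strongly expressed genes of both sexes. The 38 genes held 1.78% of the summed mean normalized counts in males and 1.99% in females. On the length-scaled level, 21 of them stood among the highest 1000 genes in males and 23 in females, beside 6.14% and 6.1% of the 16283 genes past the minimum, with medians over the listed members of 116 in males and 145 in females. The highest was Scd1, the stearoyl-CoA desaturase that makes monounsaturated fatty acids (chromosome 19, 44382894 to 44399154, minus strand, GRCm39), with a length-scaled level of 4259 in males and 4394 in females. Scd1 alone made up 44.2% of the members' summed mean normalized counts in males and 40.8% in females. At the other end, the droplet fusion protein gene Cidea was barely detected, with a male mean normalized count of 0.148. Mogat1, which acylates monoacylglycerol, had a mean of 5.59 in males and 7.44 in females. Mogat1 and Cidea were below the minimum of 10 and entered no ratio, which left 36 genes.

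**Figure D1:**
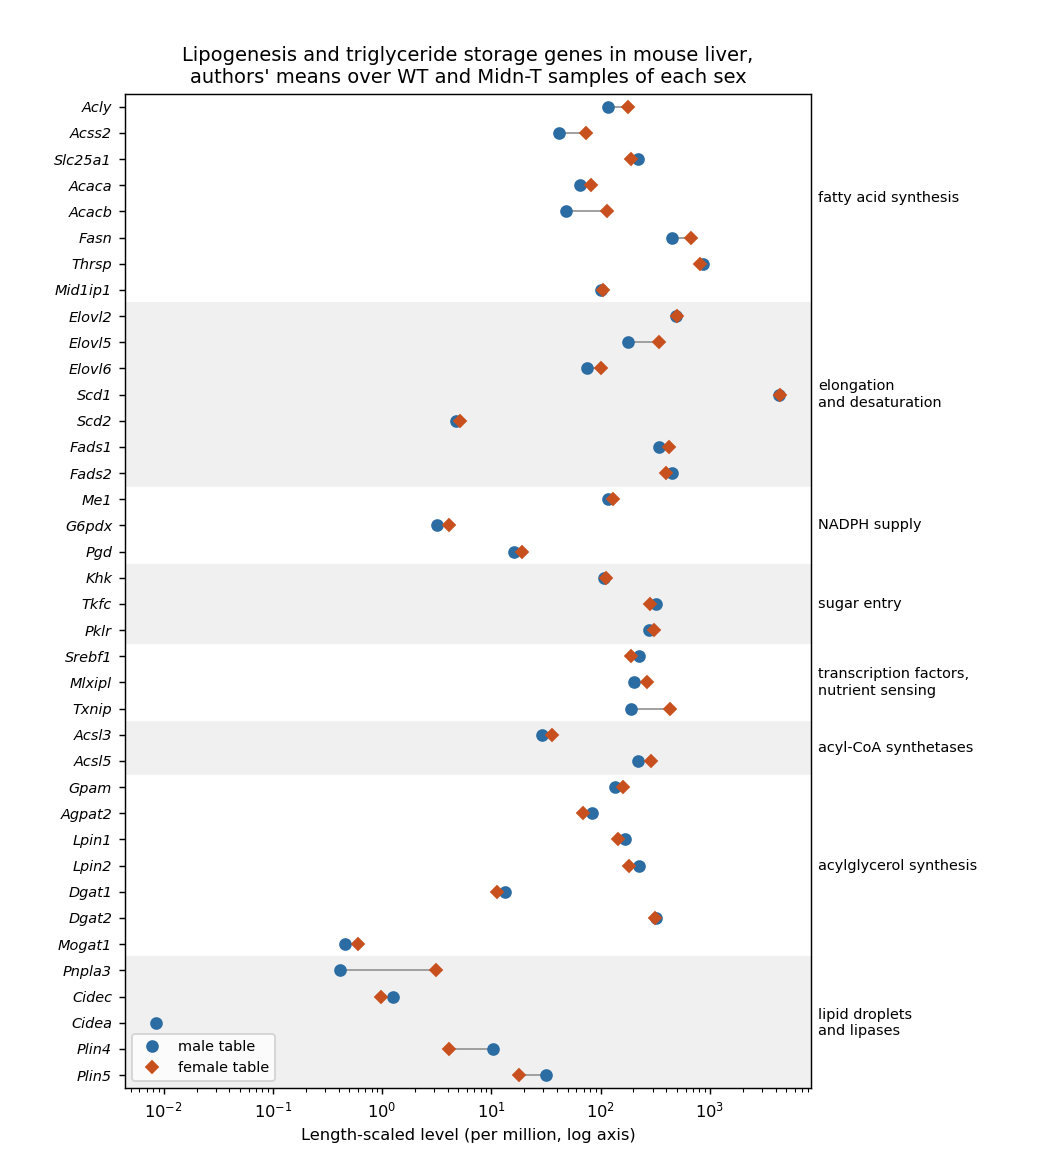
Length-scaled level (parts per 1000000, horizontal log axis) of the 38 genes, grouped by role, with blue circles for the male table and orange diamonds for the female table, each the authors' mean over WT and Midn-T samples with no error bar. Scd1 lies at 4259 and 4394, far right of the rest, and Cidea appears for males only.

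Between the sexes most of the genes lay within 1.5-fold, though a smaller share of them than of all genes. A small group differed at least 2-fold. Pnpla3, Acacb and Txnip were at least 2-fold higher in the female table, which is 3 of 36 (8.33%) beside 1.99% of all genes compared. Plin4 was the one gene at least 2-fold higher in the male table, which is 2.78% of the 36 beside 1.5% of all genes. At 1.5-fold, 6 of the 36 genes were higher in females and 2 of the 36 in males, beside 7.31% and 4.31% of all genes. The other 28 of the 36 lay within 1.5-fold, beside 88.4% of all genes. The median log2 ratio of the 36 genes was 0.10 with quartiles of -0.21 and 0.36, beside a median of 0 and quartiles of -0.18 and 0.23 over all genes. Female means were relatively higher for 23 of the genes and male means for 13, with the direction of Dgat2, Elovl2, Khk and Scd1, all close to 0, depending on the scaling or the minimum. These counts are descriptions of single pooled values.

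**Figure D2:**
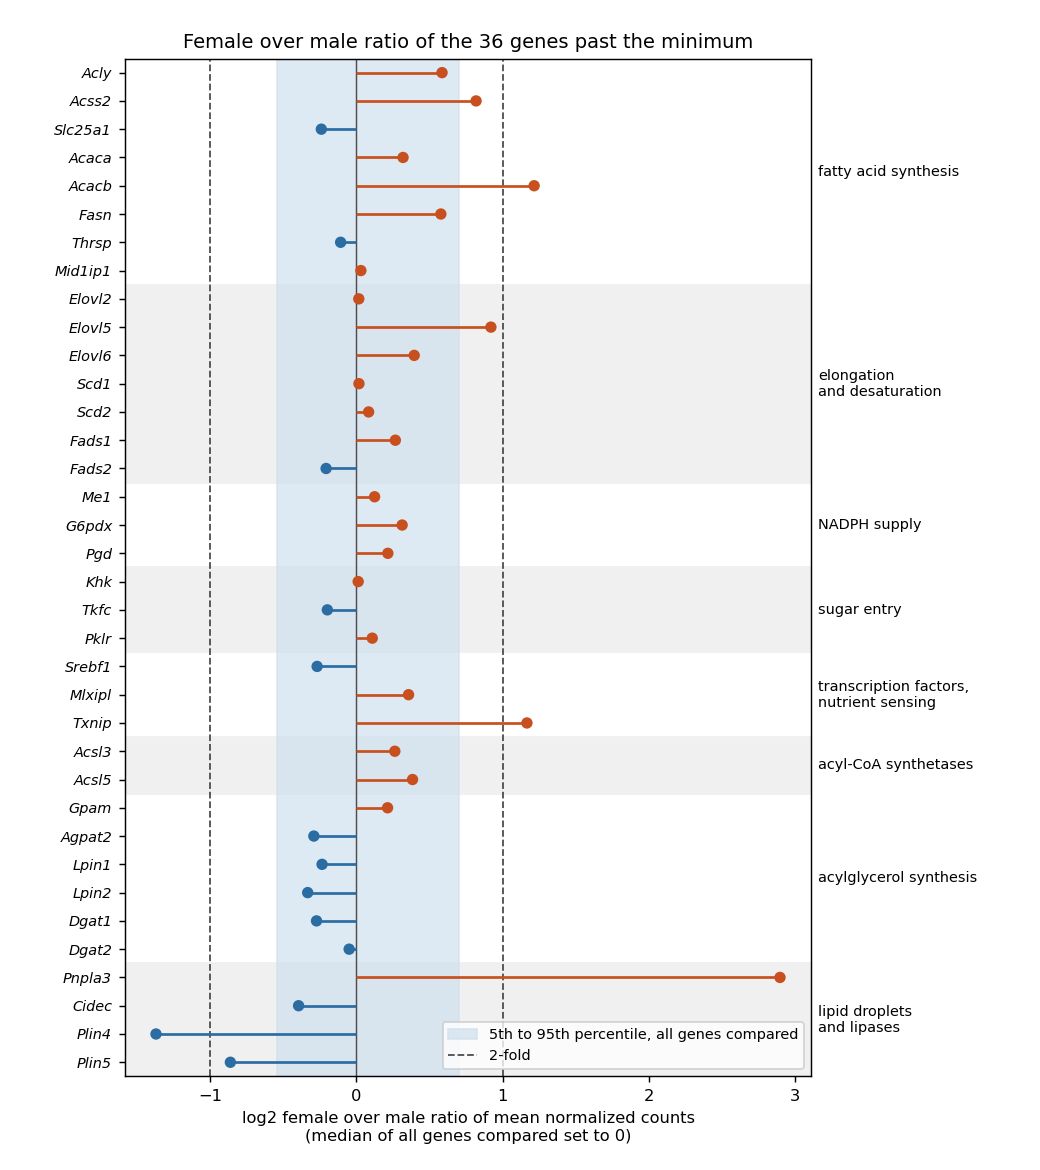
Rescaled log2 female over male ratio of mean normalized counts (horizontal axis) for the 36 genes past the minimum, grouped by role. The shaded band spans the 5th to 95th percentile of all genes compared (-0.54 to 0.70), the dashed lines mark 2-fold, and Pnpla3, Acacb, Txnip, Elovl5 and Acss2 lie right of the band while Plin4 and Plin5 lie left of it.

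Among the enzymes of fatty acid synthesis, most had the higher mean in females. Acly, which cleaves citrate to cytosolic acetyl-CoA, had a mean normalized count of 13121 in males and 20387 in females (log2 ratio 0.59). For Acss2, which makes acetyl-CoA from acetate, the means were 6338 and 11570 (log2 ratio 0.82). Acaca and Acacb encode the acetyl-CoA carboxylases, the former supplying malonyl-CoA for synthesis and the latter, at the mitochondrial surface, for restraining fatty acid import. Acaca had means of 9203 and 11888 (log2 ratio 0.32), whereas Acacb had means of 3825 and 9193 (log2 ratio 1.21), the largest ratio of the group. Per length Acaca stood 1.33-fold above Acacb in males, and Acacb stood 1.40-fold above Acaca in females. With the longest transcript in place of all exons as the length, Acaca was the higher of the pair in both sexes, by 2.32-fold in males and 1.24-fold in females, so the order in females rests on the length chosen. Fasn, the fatty acid synthase (chromosome 11, 120696672 to 120715995, minus strand), had means of 40634 and 62782 (log2 ratio 0.58) and length-scaled levels of 447 and 680. Its percentile among the ratios of all genes was 92.5 and that of Acacb 98.8.

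The other members of this group were close to equal or slightly higher in males. Slc25a1, the mitochondrial citrate carrier, had means of 4147 in males and 3638 in females (log2 ratio -0.24). Thrsp, or Spot 14, a small protein linked to lipogenic enzyme activity, had means of 14815 and 14240 (log2 ratio -0.11). Its relative Mid1ip1, which promotes acetyl-CoA carboxylase polymerization, had means of 1954 and 2067 (log2 ratio 0.03). Of the 8 genes, 6 lay above 0 and 2 below, with a median log2 ratio of 0.45.

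Of the elongases and desaturases, Scd2 had a low level in both sexes, and Elovl5 was the one with a ratio above 1.5-fold. Elovl5, an elongase of polyunsaturated fatty acids, had means of 7792 in males and 15260 in females (log2 ratio 0.92, percentile 97.5). Elovl2, which acts on longer polyunsaturated chains, had means of 15966 and 16724 (log2 ratio 0.02), and Elovl6, which extends palmitate to stearate, had means of 4977 and 6778 (log2 ratio 0.39). Per length, Elovl2 was 2.77-fold above Elovl5 in males and 1.48-fold in females, and with the longest transcript as length 1.59-fold above in males but 1.17-fold below in females. The desaturase Scd1 had means of 238201 and 249694 (log2 ratio 0.02). Its paralog Scd2 had means of 279 and 306 (log2 ratio 0.08), and per length stood 891-fold below Scd1 in males and 851-fold below in females. Since both lie on chromosome 19 and are similar in sequence, reads of Scd2 could be affected by the abundance of Scd1, which was not tested. The desaturases of polyunsaturated fatty acids, Fads1 and Fads2, had means of 14970 and 18644 (log2 ratio 0.27) and of 22848 and 20501 (log2 ratio -0.21), respectively. Per length Fads2 was 1.31-fold above Fads1 in males, and in females Fads1 was 1.06-fold above Fads2.

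Genes for NADPH and for the entry of sugar carbon all lay within 1.5-fold, with the 3 NADPH genes above 0 at a median log2 ratio of 0.21. Me1, the malic enzyme, had means of 5516 in males and 6228 in females (log2 ratio 0.12). In the pentose phosphate pathway, G6pdx, its first enzyme, had means of 161 and 207 (log2 ratio 0.31), and Pgd, which makes its second NADPH, had means of 998 and 1199 (log2 ratio 0.21). On the length-scaled level Me1 was the highest of these 3 genes in both sexes, at 116.0 and 128.9 beside 16.3 and 19.2 for Pgd and 3.21 and 4.06 for G6pdx. Khk, the fructokinase, had means of 6207 and 6483 (log2 ratio 0.01). Tkfc, which phosphorylates glyceraldehyde from fructose, had means of 11487 and 10367 (log2 ratio -0.20). Pklr, the liver pyruvate kinase and a classical ChREBP target, had means of 8125 and 9071 (log2 ratio 0.11).

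Regulators of the program differed in direction. Srebf1, which encodes SREBP-1, had means of 10266 in males and 8828 in females (log2 ratio -0.27), while Mlxipl, which encodes ChREBP, had means of 11011 and 14599 (log2 ratio 0.36). Txnip, an arrestin-like protein that restrains glucose uptake and is itself induced by glucose (chromosome 3, 96465267 to 96469201, plus strand), had means of 4656 and 10814. Its log2 ratio of 1.17 was at percentile 98.7 of all genes. Counts per gene do not separate the isoforms of Srebf1, so these values cover SREBP-1a and SREBP-1c together.

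Acyl-CoA synthesis and glycerolipid assembly lay mostly on opposite sides of 0 in the ratio. Acsl3 and Acsl5, synthetases that activate long-chain fatty acids, had means of 1231 and 1529 (log2 ratio 0.26) and of 10105 and 13653 (log2 ratio 0.38). Per length Acsl5 was 7.53-fold above Acsl3 in males and 8.18-fold in females. Gpam, the mitochondrial glycerol-3-phosphate acyltransferase that begins glycerolipid synthesis, had means of 11936 and 14328 (log2 ratio 0.21). The other 5 of the 6 acylglycerol synthesis genes compared were below 0, and the median of the 6 was -0.25. Agpat2, which adds the second acyl chain, had means of 2884 and 2441 (log2 ratio -0.29). The phosphatidate phosphatases Lpin1 and Lpin2, which yield diacylglycerol, had means of 15407 and 13562 (log2 ratio -0.23) and of 22260 and 18305 (log2 ratio -0.33). Dgat1 and Dgat2 catalyse the final step to triglyceride. Their means were 469 and 402 (log2 ratio -0.27) and 15138 and 15149 (log2 ratio -0.05), and per length Dgat2 was 24.3-fold above Dgat1 in males and 28.4-fold in females. All 6 ratios lay within 1.5-fold.

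Droplet proteins and the lipase-like Pnpla3 had the largest female over male and male over female ratios of the 36 genes. Pnpla3, a patatin-like acyl hydrolase of the droplet surface (chromosome 15, 84051943 to 84073723, plus strand), had a mean of 17.0 in males and 131 in females, a 7.43-fold ratio (log2 ratio 2.89) at percentile 99.9 of all genes. The level was low in either sex, at length-scaled levels of 0.412 and 3.12, and the male mean lay near the minimum. Plin4, a perilipin with a long repeat region (chromosome 17, 56406617 to 56416931, minus strand), had means of 638 in males and 256 in females, 2.58-fold higher in males (log2 ratio -1.37, percentile 0.841). Plin5, which couples droplets to mitochondria and lies beside Plin4 on the same chromosome, had means of 759 and 433, 1.82-fold higher in males (log2 ratio -0.86, percentile 2.05). Per length Plin5 was 3.10-fold above Plin4 in males and 4.42-fold in females. Cidec, which promotes droplet fusion, had means of 30.2 and 23.8 (log2 ratio -0.39).

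**Figure D3:**
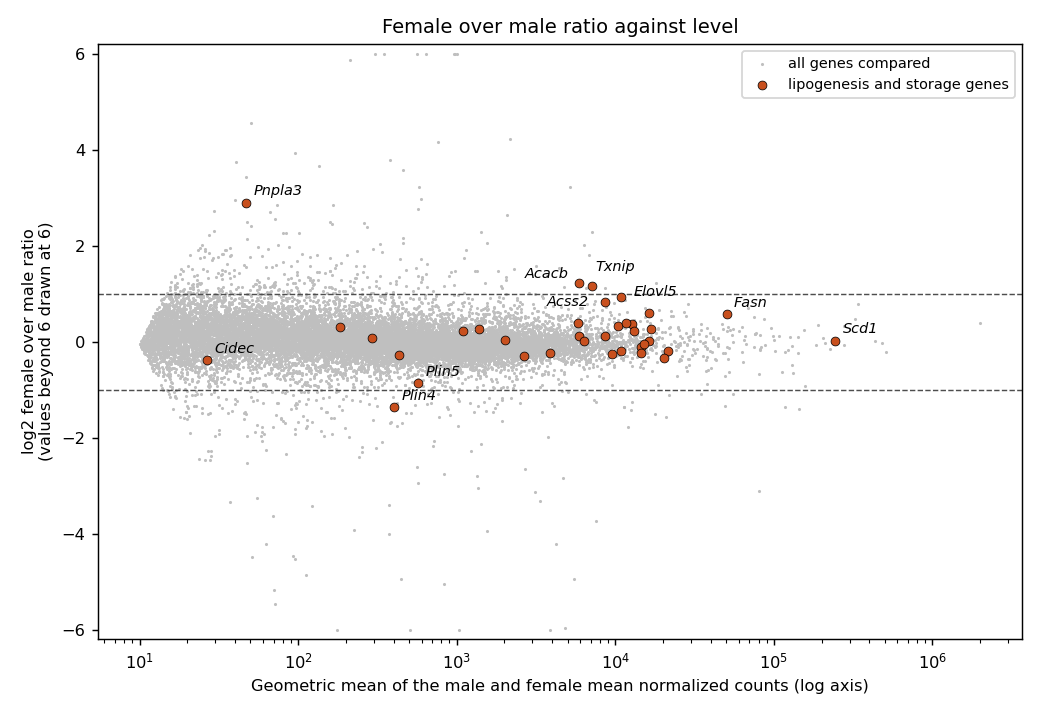
Rescaled log2 female over male ratio (vertical axis) against the geometric mean of the male and female mean normalized counts (horizontal log axis) for the 36 genes (orange) and all 16283 genes compared (grey). The dashed lines mark 2-fold, and Acacb and Txnip are the high-count genes above it while Pnpla3 sits at low counts.

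Markers of other cell types were set beside these values. Stellate cell markers had log2 ratios from 0.28 to 0.45, with 6 of 6 above 0, and their summed means were 10627 in males and 13845 in females. Of 8 adipocyte markers, Car3, Lipe and Fabp4 are also expressed by other liver cells. The more restricted Adipoq and Plin1 had means of 3.10 and 3.64 in males and of 18.3 and 18.4 in females. Retn had means of 1.77 and 10.2, Cfd of 12.1 and 47.9, and Lep was at 0.131 in males and was not listed in females. The summed means of all 8 were 63952 in males and 43390 in females, most of it Car3, at 63278 and 42501. The part of fat tissue or of any cell type in the ratios was not tested. Kupffer cell markers had a median log2 ratio of -0.04, those of sinusoidal endothelium 0.13 and those of cholangiocytes 0.47, with summed means of 1062 and 1188 for the last.

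A list of 58 other genes of the pathway was examined in the same way, and 55 passed the minimum. Their median log2 ratio was -0.06, with 21 above 0 and 34 below. Gpat3, a microsomal glycerol-3-phosphate acyltransferase, and Acss3, a mitochondrial short-chain acyl-CoA synthetase, were the 2 genes at least 2-fold higher in females. The means of Acss3 were 640 and 3205 (log2 ratio 2.27) and those of Gpat3 93.1 and 268 (log2 ratio 1.47). Elovl3, an elongase of saturated chains with a male-typical liver pattern, and Fitm1, an endoplasmic reticulum protein of droplet formation, were the 2 at least 2-fold higher in males. The means of Elovl3 were 1486 and 95.1 (log2 ratio -4.02) and those of Fitm1 179 and 63.6 (log2 ratio -1.54). On the length-scaled level genes near the top of the list in males were the droplet protein gene Hsd17b13, the SREBP retention factor gene Insig1, the droplet and VLDL factor gene Cideb and the glucose transporter gene Slc2a2. Their levels were 464, 337, 298 and 278 in males and 382, 489, 291 and 288 in females.

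The upstream sequences of the 4 genes past 2-fold are shown because these members had the largest ratios between the tables. Each is the 250 bases before the RefSeq start site on the gene's strand in GRCm38.p6, an older build than that of the files, and capitals mark matches to the motifs searched.
The Pnpla3 stretch is chr15:84167566-84167815, that of Acacb chr5:114165268-114165517 and that of Txnip chr3:96557707-96557956, all on the plus strand, and that of Plin4 is chr17:56109783-56110032 on the minus strand.
Pnpla3: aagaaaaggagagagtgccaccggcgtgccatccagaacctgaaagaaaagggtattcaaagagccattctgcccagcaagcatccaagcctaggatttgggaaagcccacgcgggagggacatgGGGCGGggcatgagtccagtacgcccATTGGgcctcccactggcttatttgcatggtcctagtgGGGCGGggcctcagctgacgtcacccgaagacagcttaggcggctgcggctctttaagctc
Acacb: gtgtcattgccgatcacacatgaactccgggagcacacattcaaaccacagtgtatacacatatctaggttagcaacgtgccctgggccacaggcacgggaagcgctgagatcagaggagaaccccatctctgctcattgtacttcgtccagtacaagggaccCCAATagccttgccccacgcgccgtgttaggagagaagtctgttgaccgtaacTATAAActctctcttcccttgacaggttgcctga
Txnip: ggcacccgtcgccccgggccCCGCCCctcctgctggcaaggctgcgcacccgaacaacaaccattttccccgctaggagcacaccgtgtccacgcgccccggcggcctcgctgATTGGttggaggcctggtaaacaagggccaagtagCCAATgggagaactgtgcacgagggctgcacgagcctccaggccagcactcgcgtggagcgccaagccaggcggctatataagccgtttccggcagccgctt
Plin4: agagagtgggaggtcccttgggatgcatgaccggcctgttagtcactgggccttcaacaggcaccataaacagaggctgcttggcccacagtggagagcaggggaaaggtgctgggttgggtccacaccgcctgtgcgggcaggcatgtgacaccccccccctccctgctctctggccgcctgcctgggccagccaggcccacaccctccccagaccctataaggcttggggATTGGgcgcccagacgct
All 4 hold a CCAAT match, the NF-Y box, on one strand or the other, as ATTGG where it lies on the reverse strand. Such a match is common, so nothing is read from its presence in all 4. In the longer windows counted below, it occurred for 22 of the 32 genes matched by symbol (68.8%). The share was 42.9% of all genes with a window and past the minimum count. GGGCGG, the GC box bound by Sp1, is present in Pnpla3 and Txnip, as CCGCCC in the latter, and TATAAA is present in Acacb.

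The same motifs were counted on both strands in the RefSeq windows, from 250 bases before to 50 after a start site, of the 32 genes that matched by symbol. CCAAT occurred for 22 of 32 genes (68.8%), beside 41.1% of all 27025 genes with a window and 42.9% of the 10770 of them past the minimum count. Counted on the gene's own strand only, it occurred for 11 (34.4%) beside 23.7% and 25.0%. GGGCGG occurred for 19 (59.4%) beside 38.2% of all genes and 65.4% of those past the minimum. CACGTG, the E-box that ChREBP and SREBP-1 can both bind, was found for Elovl5, Khk, Lpin2, Mlxipl and Slc25a1 (15.6%), beside 8.09% and 11.3%. The SREBP element was searched only as TCACNCCAC, and in that form was found for Mlxipl alone (3.12%), beside 1.44% and 1.48%. Other forms of it were not looked for, so nothing is read from members without a match. TATAAA was found for Acacb and Pklr (6.25%), beside 15.7% and 9.72%. The carbohydrate response element was searched only as a pair of exact CACGTG spaced by 5 bases, so other forms of it were not looked for. The DR4 element of LXR was searched only as a pair of exact AGGTCA spaced by 4 bases. Neither had a match for the 32 genes, beside 0 and 4 (0.0148%) of all 27025 genes. The absence of a match says nothing about whether the members hold either element. Several genes have more than 1 window, and a match anywhere in them counted.

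Listed ATAC-seq peaks were then placed against the genes. The authors list 179 peaks for males, taken at a raw P of 0.05 and not adjusted for multiple testing, and 217 for females at an FDR of 0.1, all 500 bp long, as differing between Midn-T and WT livers. The paper states that no male peak reached an FDR of 0.1 and calls the male list exploratory, so its peaks are not established differences. Within 100 kb of a start site, 6 of the 38 genes (15.8%) had a peak of the male list, beside 2.78% of all protein-coding genes and 3.46% of the 12962 past the minimum count. For the female list it was 1 gene (2.63%), beside 1.75% and 1.68%. The 6 genes share 5 peaks, because Fads1 and Fads2 are neighbours, and Tkfc lies on the same chromosome within the same region, so these genes are not independent. The members were also chosen with earlier results of these data known, and the paper names Fasn and Acsl5 among genes near male peaks. The higher share of members may partly follow from that choice, which was not tested. Fasn and Acsl5 were the 2 genes with a peak of the male list within 10 kb, beside 0.638% of all protein-coding genes. Fasn, Acsl5 and Fads2 were the 3 that were the nearest protein-coding gene to their peak, beside 0.717% of all. The female list had 0 members by either rule, beside 0.248% and 0.629% of all protein-coding genes. The lists give no accessibility value for a sample, and the 2 thresholds differ, so the lists were not compared with each other.

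**Figure D4:**
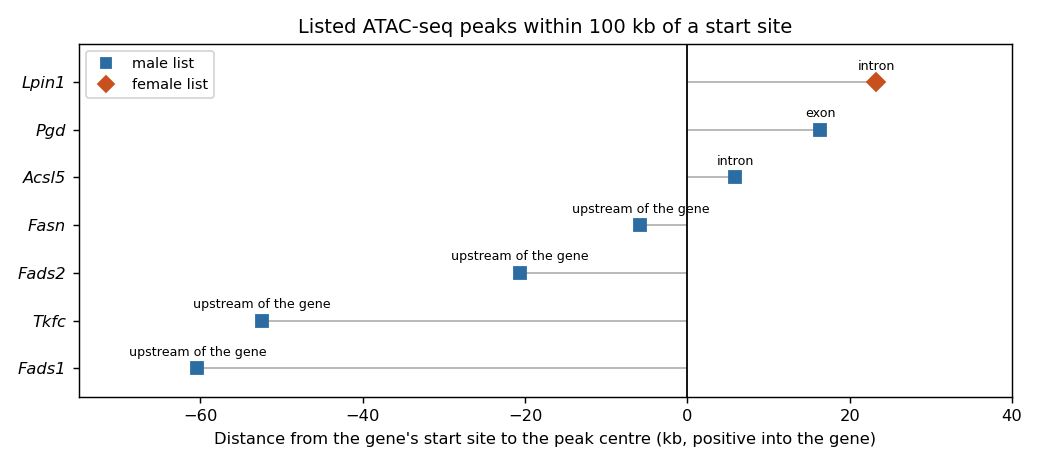
Distance in kb from the start site of each gene to the centre of a listed peak (horizontal axis, positive into the gene) for the 7 genes with a listed peak within 100 kb, with blue squares for the male list and an orange diamond for the female list. The peaks of Acsl5 and Fasn lie 5.9 and 5.8 kb from the start site, and Fads1 and Fads2 share a peak.

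The central 300 bases of the 3 peaks of the male list whose nearest protein-coding gene is a member, and of the one peak of the female list, are shown on the plus strand of GRCm39 with motif matches in capitals. The Fasn peak (chr11:120721625-120721924 for the bases shown) lies 5.8 kb upstream of the start site, the Acsl5 peak (chr19:55246015-55246314) in an intron 5.9 kb inside the gene, the Fads2 peak (chr19:10099658-10099957) 20.6 kb upstream, and the Lpin1 peak (chr12:16680498-16680797) in an intron 23.3 kb inside the gene.
Fasn: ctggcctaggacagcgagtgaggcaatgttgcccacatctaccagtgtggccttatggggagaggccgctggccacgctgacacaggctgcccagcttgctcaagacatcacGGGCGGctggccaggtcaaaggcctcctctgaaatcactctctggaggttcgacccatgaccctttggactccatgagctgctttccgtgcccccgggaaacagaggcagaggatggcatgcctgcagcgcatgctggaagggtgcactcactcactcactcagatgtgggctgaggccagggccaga
Acsl5: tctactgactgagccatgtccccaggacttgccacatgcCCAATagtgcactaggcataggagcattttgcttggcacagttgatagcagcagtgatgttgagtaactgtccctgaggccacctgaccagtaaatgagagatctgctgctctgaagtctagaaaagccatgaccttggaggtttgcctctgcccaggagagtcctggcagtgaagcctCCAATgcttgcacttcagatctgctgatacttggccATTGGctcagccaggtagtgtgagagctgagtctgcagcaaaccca
Fads2: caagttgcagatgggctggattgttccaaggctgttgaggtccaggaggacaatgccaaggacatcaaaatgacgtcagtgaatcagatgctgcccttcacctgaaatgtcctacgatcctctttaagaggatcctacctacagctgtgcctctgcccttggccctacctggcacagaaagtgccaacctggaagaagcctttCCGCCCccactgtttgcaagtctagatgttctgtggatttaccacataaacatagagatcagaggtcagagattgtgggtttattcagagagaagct
Lpin1: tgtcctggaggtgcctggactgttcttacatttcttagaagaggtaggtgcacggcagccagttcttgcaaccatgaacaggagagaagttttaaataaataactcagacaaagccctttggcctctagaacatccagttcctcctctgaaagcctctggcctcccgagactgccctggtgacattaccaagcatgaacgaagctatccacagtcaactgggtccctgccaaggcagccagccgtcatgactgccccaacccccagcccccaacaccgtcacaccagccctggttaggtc
The Acsl5 stretch holds 3 CCAAT matches and those of Fasn and Fads2 each hold 1 GGGCGG match, while none of the 7 motifs matched in the Lpin1 stretch. Over the central 300 bases, CCAAT occurred in 35.2% of the 179 peaks of the male list and in 28.6% of the 217 of the female list. GGGCGG occurred in 68 (38%) and 25 (11.5%) of them. Peaks outside the lists were not counted, so these shares have no background. The remaining peaks of the male list lay farther from the start site or nearer to another gene. One overlapped an exon of Pgd, 16.4 kb inside the gene and nearest to Cenps, and another lay 52.4 kb upstream of Tkfc and nearest to Pga5. The nearest protein-coding start site to the Lpin1 peak was that of Ntsr2.

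Of the 7 genes with a listed peak, log2 female over male ratios ran from -0.23 for Lpin1 to 0.58 for Fasn. None of Pnpla3, Acacb, Txnip and Plin4 had a listed peak within 100 kb, and with 2.78% and 1.75% of all protein-coding genes having one, nothing is read from this. The peak lists concern Midn-T against WT livers within a sex and the ratios concern the sexes, so the measures do not address the same contrast.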

How the data were processed

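RNA-seq (3 WT and 3 Midn-T livers per sex) and ATAC-seq (2 and 2 per sex) were analysed from the deposited tables, grouped by the labels. Per the study's methods and processing notes, the authors depleted ribosomal RNA, used STAR 2.7 for alignment to GRCm39, counted unique alignments per Ensembl gene on the reverse strand with HTSeq and analysed each sex separately in DESeq2. The signal used is the deposited mean, over the 6 samples of a sex, of counts the authors divided by size factors. The depth of single libraries is unknown. Log2 fold changes of Midn-T over WT, standard errors, statistics, p-values and adjusted p-values in the same tables, and the direction of each listed peak, are the authors' own comparisons and were not used. The female table starts at a mean of 6.61. For ATAC-seq the authors used STAR, MACS2, featureCounts and edgeR, merged peaks over samples and set each to 500 bp.

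Genes were joined by Ensembl identifier. Exon length was the union of GENCODE M39 exons (56323 of 56884 genes). The minimum mean was 10 in both tables, the fold threshold 2, and no pseudocount was added. There are 2 tables with 1 pooled value per gene each, so no test was run, and a p-value, SD or interval cannot be given. Calculations used Python 3.11.15, numpy 2.4.6, pandas 2.3.3 and matplotlib 3.10.9, and were checked on simulated data. Peak positions were read as starting from 0 and printed from 1. Promoter windows came from RefSeq (GRCm38.p6), matched by symbol for 32 of the 38 genes. The members and lists were chosen with earlier results of these data known. All 38 genes are named. Of the other 58, those past 2-fold between the tables and the 5 highest per length are named (1 of these is not reported here), with paralog pairs and fixed cell type markers. Plin1 and Lipe are in both the adipocyte list and that of other pathway genes, and Elovl3 in the latter and the male list. Alternatives changed the scaling, minimum, fold, pseudocount, gene length, peak distance and strand.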

Additional observations from a re-analysis of the deposited data

How the results depend on the processing

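The median log2 female over male ratio of the 36 genes was 0.10. It became 0.15 with the values as deposited and 0.12 after division by each table's sum. Division by the sum without the 10 largest genes gave 0.17. The median of all genes moved too, to 0.05, 0.03 and 0.08 under these 3 scalings. Changing the minimum also changed which members were compared. The members' median was 0.085 with no minimum, where Mogat1 entered, and 0.14 with a minimum of 100, where Pnpla3 and Cidec left. With a 1.5-fold threshold 6 of the 36 genes were higher in females and 2 of the 36 in males, beside 7.31% and 4.31% of all genes. The counts of 3 and 1 held under every other alternative except the minimum of 100, which left 2 and 1 because Pnpla3 dropped out. The share of all genes past 2-fold moved meanwhile. It ran from 1.07% with the minimum of 100 to 3.52% with no minimum for female-higher genes. For male-higher genes it ran from 0.973% to 1.57% under the same settings. With peaks limited to 10 kb, 2 genes had one in the male list and 0 in the female list (all protein-coding genes 0.638% and 0.248%), and with the gene required to be the nearest protein-coding gene, 3 and 0 (all genes 0.717% and 0.629%). The CCAAT count fell from 22 to 11 on the gene's own strand. Counts among the highest 1000 genes per length stayed between 21 and 24. No paired analysis was possible because the tables hold pooled means and no result comes from a test. Each value is one mean over both genotypes, so spread between mice, an effect of Midn-T and the depth of single libraries enter it and cannot be told apart.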
